A study of Mus musculus with 12 samples.

Results

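Genes of mitosis were examined in 12 RNA-seq libraries of mouse bone marrow macrophages (MΦs): 54 genes of the 55573 in the count table, chosen by symbol for their known roles in the mitotic spindle, the kinetochore, cytokinesis and chromosome structure. BMI1-KO MΦs came from BMI1fl/fl Mx1-Cre mice on a C57BL/6 background, in which an interferon-inducible promoter drives the recombinase, and wt MΦs came from BMI1fl/fl mice without it. Mice of both genotypes were therefore floxed at Bmi1, and both were injected at 6 to 8 weeks of age with 5 doses of poly I:C (15 mg/kg), 4 weeks before marrow was taken. Adherent marrow cells were grown for 7 days with 5 ng/mL M-CSF into MΦs. MM-MΦs are the same kind of cells after a further 48 h with 5TGM1 cells, a mouse myeloma line. RNA came from sorted CD11b+ F4/80+ cells. Each genotype gave 3 libraries of MM-MΦs and 3 of MΦs, numbered 1 to 3 in the labels, which do not say whether the libraries of a group came from separate mice or what a number marks. P-values thus measure only the spread between these libraries.

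Library totals were 9662279 to 11142768 counts, and the genes with at least 1 count numbered 17611 to 18370. Macrophage markers were abundant in all 12 libraries (10 genes, summed to 13100 to 20140 CPM, here counts scaled to the library total after its TMM adjustment). Bmi1 had 325, 281 and 364 counts in wt MM-MΦs and 251, 263 and 321 counts in wt MΦs, and each of the 6 BMI1-KO libraries lists it at 0. Totals implied by the deposited FPKM were 512 to 734 counts above the sums for BMI1-KO and no higher than them for wt, so these zeros were not used to check the labels.

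Mitosis is run by cyclin B and Cdk1, which drive a cell into division, and by the Polo and Aurora kinases. The kinetochore ties chromosomes to the microtubules of the spindle, the spindle checkpoint holds back the anaphase-promoting complex until all are tied, and a set of kinesins and their partners then builds the midzone and divides the cell. Most of these genes are transcribed in G2 and M phase and are silent in resting cells, so their RNA in a bulk sample is widely read as a mark of dividing cells. Fewer dividing cells and less RNA per cell cannot be told apart in such samples. Macrophages are mostly resting, but those grown from marrow with M-CSF can divide.

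Genes of this kind often share 2 short promoter motifs. The cell cycle genes homology region (CHR, searched as TTTGAA or TTCGAA) is a target of the MuvB complex, which works with B-Myb and FoxM1, and the CCAAT box is bound by NF-Y. RefSeq promoter windows of build GRCm38.p6, 250 bases before to 50 after a gene's start, were found for 46 of the 54 genes (49 windows). On either strand a CHR element was present in 38 of the 49 windows (77.6%), against 19.2% of all 32851 windows. Within 100 bases before to 50 after the start the figures were 71.4% of the 49 windows and 8.59% of all windows. A CCAAT box was present in 77.6% of the 49 windows and in 37.4% of all windows, and both motifs were present in 67.3% and in 7.52%. Neighbouring matches of the motifs may share end letters and were each counted, and a match is a description of the sequence and not evidence of a site in use. The windows below, printed from 150 bases before to 30 after the start with both motifs in capitals on whichever strand they lie, show the arrangement in a B-type cyclin, in Cdk1, in the checkpoint target Cdc20 and in Top2a. Ccnb1, whose window holds CCAAT boxes alone, and Pttg1, chosen after its values were seen and with neither motif in its window, are printed for contrast. The start of Pttg1 in the GENCODE M21 annotation lies further upstream, at chr11:43426251, outside its RefSeq window. The sequence before that start was not searched, so its promoter there may hold either motif. The windows of Birc5, Mad2l1, Nuf2, Ncaph and Nusap1 held neither motif as well.
Ccnb2 (chr9:70421525-70421704, minus strand): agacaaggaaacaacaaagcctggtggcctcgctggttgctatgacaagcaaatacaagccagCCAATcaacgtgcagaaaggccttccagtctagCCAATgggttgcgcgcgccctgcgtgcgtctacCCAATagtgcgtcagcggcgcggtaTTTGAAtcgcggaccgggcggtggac
Cdk1 (chr10:69352883-69353062, minus strand): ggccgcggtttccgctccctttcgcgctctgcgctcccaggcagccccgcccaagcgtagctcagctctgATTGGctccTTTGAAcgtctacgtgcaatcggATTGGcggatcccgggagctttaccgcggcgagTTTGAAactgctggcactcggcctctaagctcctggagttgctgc
Cdc20 (chr4:118437314-118437493, minus strand): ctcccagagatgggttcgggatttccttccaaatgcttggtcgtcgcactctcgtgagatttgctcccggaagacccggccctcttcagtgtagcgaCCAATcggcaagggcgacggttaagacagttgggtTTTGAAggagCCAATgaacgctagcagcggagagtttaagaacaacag
Top2a (chr11:99024160-99024339, minus strand): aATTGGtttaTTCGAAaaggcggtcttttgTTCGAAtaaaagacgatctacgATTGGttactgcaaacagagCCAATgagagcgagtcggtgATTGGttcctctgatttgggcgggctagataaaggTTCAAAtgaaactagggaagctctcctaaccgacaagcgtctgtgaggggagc
Ccnb1 (chr13:100786457-100786636, minus strand): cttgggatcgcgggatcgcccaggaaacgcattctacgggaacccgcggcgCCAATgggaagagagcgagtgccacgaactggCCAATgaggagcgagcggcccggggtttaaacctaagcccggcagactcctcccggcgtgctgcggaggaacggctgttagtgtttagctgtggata
Pttg1 (chr11:43425952-43426131, minus strand): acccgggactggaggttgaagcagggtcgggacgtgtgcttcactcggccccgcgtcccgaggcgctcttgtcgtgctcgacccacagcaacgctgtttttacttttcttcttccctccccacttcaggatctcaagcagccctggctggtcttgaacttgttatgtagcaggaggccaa

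In Ccnb2 the CHR element began 4 bases after the start, with CCAAT boxes beginning at 87, 54 and 21 bases before it. In Cdk1 the element nearest the start began 15 bases before it, and in Cdc20 18 bases before it. Elements of the 49 windows were most often found in the first 25 bases after the start (15 windows, 30.6%, against 1.43% of all windows), and CCAAT boxes most often from 75 to 50 bases before it (17 windows, 34.7%, against 6.99%).

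**Figure D1:**
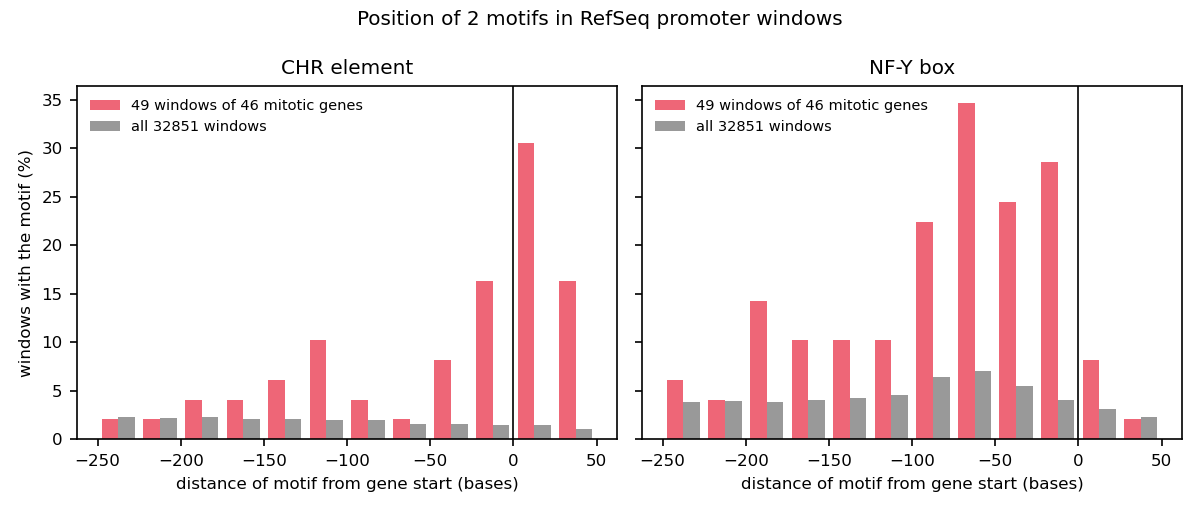
Share of promoter windows that hold a motif in each 25-base step from 250 bases before to 50 after the gene start (x axis, bases), for the 49 windows of the mitotic genes (red) and all 32851 windows (grey). The CHR element (left) was most frequent in the first 25 bases after the start, in 30.6% of the mitotic windows, and the CCAAT box bound by NF-Y (right) from 75 to 50 bases before it, in 34.7%.

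The mitotic genes varied far more between libraries of 1 group than most genes did, and they varied with the replicate number. Their summed level was 518, 1894 and 2314 CPM in BMI1-KO MM-MΦ replicates 1, 2 and 3, and 967, 1721 and 6385 CPM in wt MM-MΦs. Among MΦs it was 452, 1618 and 2110 CPM in BMI1-KO libraries and 758, 1712 and 6254 CPM in wt libraries. In all 4 groups replicate 1 had the lowest sum and replicate 3 the highest, 4.47 and 6.6 times as high in BMI1-KO and wt MM-MΦs, and 4.67 and 8.26 times in BMI1-KO and wt MΦs. As a share of all counts, without the TMM adjustment, the genes made up 0.0449% to 0.682% of a library.

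Nek2, a centrosome kinase, had 0 to 13 counts in each library and was below the filter, so 53 of the 54 genes were tested. Of these, 52 were highest in a wt library numbered 3 and 51 were lowest in a BMI1-KO library numbered 1. The range of log2 CPM over the 12 libraries had a median of 4.91 over the 53 genes, against 1.13 over all 14197 genes tested. In each of the 4 groups, replicate 3 was the highest and replicate 1 the lowest for 38 of the 53 genes, against 4.7% of all genes tested.

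**Figure D2:**
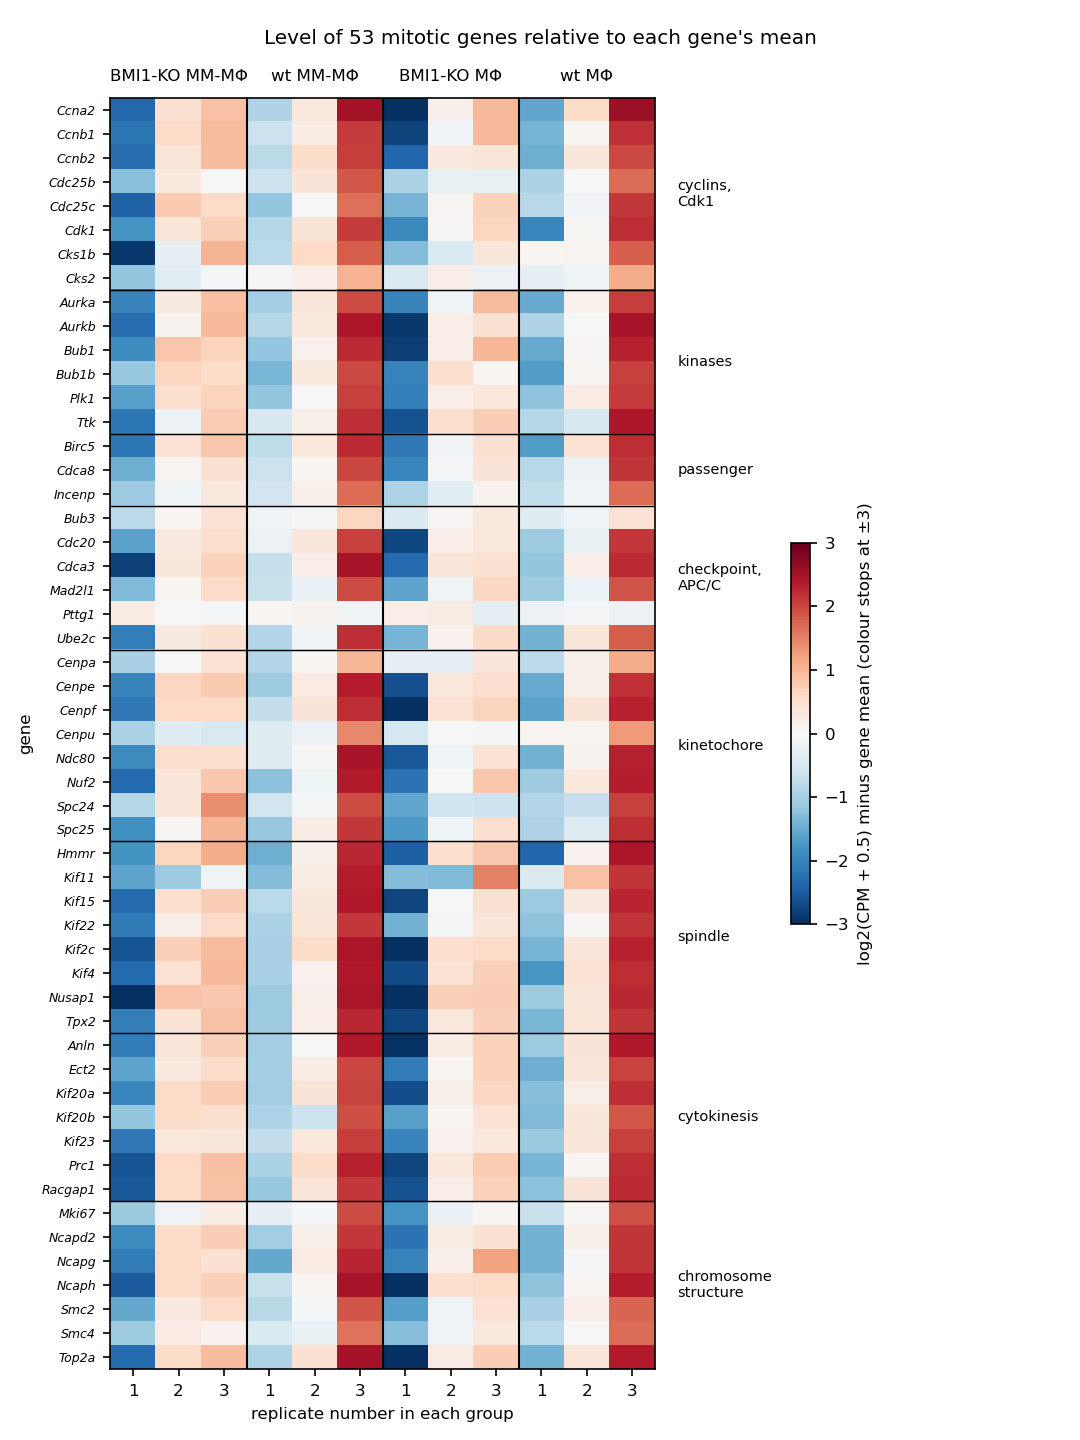
Level of the 53 tested mitotic genes (rows, by role) in the 12 libraries (columns, replicates 1 to 3 of each group), as log2(CPM + 0.5) minus the gene's mean over all libraries, blue below and red above it. Replicate 1 is blue in nearly every row, replicate 3 is dark red in the wt groups and pale red in the BMI1-KO groups, and Pttg1 stays near white.

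Among cyclins and their kinase, Ccnb1 (cyclin B1) had 24, 205 and 298 counts in BMI1-KO MM-MΦ replicates 1, 2 and 3, and 85, 153 and 681 counts in wt MM-MΦs. In MΦs it had 15, 134 and 297 counts in BMI1-KO libraries and 48, 138 and 746 counts in wt libraries. The groups overlapped, and replicate 3 was the highest in each. Cdk1, the kinase that cyclin B activates, had 60, 296 and 423 counts in BMI1-KO MM-MΦs against 124, 291 and 1142 counts in wt MM-MΦs, and 54, 244 and 399 counts in BMI1-KO MΦs against 54, 229 and 1256 counts in wt MΦs. At replicate 2 the genotypes were nearly level for Cdk1, whereas at replicate 3 both wt libraries were the higher. Ccna2 (cyclin A2), which acts in S and G2 phase, had one of the 3 widest ranges of the 53 genes (6.27 in log2 CPM), from 28 counts in BMI1-KO MΦ replicate 1 to 2801 in wt MΦ replicate 3.

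The mitotic kinases were likewise lowest in replicate 1. Plk1, the Polo-like kinase of mitotic entry and spindle assembly, had 46, 227 and 293 counts in BMI1-KO MM-MΦs against 70, 156 and 783 counts in wt MM-MΦs, and 34, 197 and 224 counts in BMI1-KO MΦs against 66, 190 and 834 counts in wt MΦs. Aurkb, the kinase of the chromosomal passenger complex, had 22, 144 and 297 counts in BMI1-KO MM-MΦs against 71, 160 and 832 counts in wt MM-MΦs, and 13, 160 and 203 counts in BMI1-KO MΦs against 68, 130 and 888 counts in wt MΦs. For both kinases the lowest library was a BMI1-KO replicate 1 and the highest a wt replicate 3. Bub1b (BubR1), a checkpoint kinase-like protein, had 73, 277 and 293 counts in BMI1-KO MM-MΦs against 65, 209 and 815 counts in wt MM-MΦs, and 39, 262 and 206 counts in BMI1-KO MΦs against 51, 184 and 881 counts in wt MΦs. Bub1b had more counts in BMI1-KO than in wt MM-MΦs at replicates 1 and 2, and in BMI1-KO MΦs replicate 2 was above replicate 3. Birc5 (survivin), which brings Aurora B to the centromere, had 27, 198 and 292 counts in BMI1-KO MM-MΦs against 84, 178 and 814 counts in wt MM-MΦs, and 28, 146 and 224 counts in BMI1-KO MΦs against 42, 192 and 817 counts in wt MΦs.

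In the spindle checkpoint, Mad2l1 (Mad2), which inhibits Cdc20, had 89, 250 and 405 counts in BMI1-KO MM-MΦs against 152, 204 and 1092 counts in wt MM-MΦs, and 75, 237 and 413 counts in BMI1-KO MΦs against 111, 211 and 1065 counts in wt MΦs. Cdc20, the activator of the anaphase-promoting complex, had 31, 135 and 180 counts in BMI1-KO MM-MΦs against 98, 137 and 539 counts in wt MM-MΦs, and 12, 134 and 153 counts in BMI1-KO MΦs against 50, 92 and 581 counts in wt MΦs. The inhibitor and its target thus had their highest and lowest libraries at the same replicate numbers. Pttg1 (securin), which holds separase inactive until anaphase, stood apart from this. It had 175, 160 and 170 counts in BMI1-KO MM-MΦs against 164, 165 and 166 counts in wt MM-MΦs, and 175, 195 and 140 counts in BMI1-KO MΦs against 138, 150 and 164 counts in wt MΦs. Its range of log2 CPM, 0.54, was the smallest of the 53 genes, followed by Bub3 (1.46), a checkpoint protein, and the centromeric histone Cenpa (2.09). The promoter windows of Bub3 and Cenpa held both motifs. Birc5, Mad2l1, Nuf2, Ncaph and Nusap1, whose windows like the one searched for Pttg1 held neither, had ranges of 4.55, 3.58, 4.91, 5.74 and 5.8. A link between motifs and range was not tested.

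At the kinetochore, the motor Cenpe had 81, 550 and 685 counts in BMI1-KO MM-MΦs against 167, 406 and 2069 counts in wt MM-MΦs, and 51, 467 and 555 counts in BMI1-KO MΦs against 118, 394 and 1904 counts in wt MΦs. Ndc80 (Hec1), the microtubule-binding subunit of the complex named after it, had 21, 141 and 157 counts in BMI1-KO MM-MΦs against 74, 97 and 641 counts in wt MM-MΦs, and 12, 93 and 145 counts in BMI1-KO MΦs against 33, 103 and 590 counts in wt MΦs. Its partners Nuf2 and Spc25 were likewise highest in the wt replicates 3, at 681 and 683 counts for Nuf2 and 332 and 360 counts for Spc25 in wt MM-MΦs and wt MΦs. Spc24, the other subunit of that complex, was close to the limit of detection, with 3, 14 and 38 counts in BMI1-KO MM-MΦs against 5, 9 and 60 in wt MM-MΦs, while BMI1-KO MΦs had 0, 5 and 5 against 3, 4 and 66 in wt MΦs.

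Among spindle proteins, Tpx2, which activates Aurora A and nucleates microtubules, had 86, 532 and 826 counts in BMI1-KO MM-MΦs against 188, 447 and 2215 counts in wt MM-MΦs, and 53, 523 and 733 counts in BMI1-KO MΦs against 150, 502 and 2089 counts in wt MΦs. Kif2c (MCAK), a kinesin that takes microtubules apart, had the widest range of the 53 genes (6.48 in log2 CPM), from 4 counts in BMI1-KO MΦ replicate 1 to 619 in wt MM-MΦ replicate 3. Kif11 (Eg5), the motor that pushes spindle poles apart, had few counts, 0, 2 and 10 in BMI1-KO MM-MΦs against 1, 12 and 81 in wt MM-MΦs, while BMI1-KO MΦs had 1, 1 and 41 against 6, 22 and 71 in wt MΦs. Per length its median over the 12 libraries was 0.1 FPKM as deposited, against 10.7 FPKM for Tpx2 and 27.8 FPKM for Mki67, the highest of the 54 genes. In the GENCODE M21 annotation, 0% of the 7461 exonic bases of Kif11 overlap another gene and 2.1% of its 50-base stretches recur in other genes.

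Cytokinesis genes were again highest in the wt replicates 3. Kif20a (Mklp2), which carries the passenger complex to the midzone, had 61, 398 and 511 counts in BMI1-KO MM-MΦs against 128, 341 and 1267 counts in wt MM-MΦs, and 37, 316 and 457 counts in BMI1-KO MΦs against 105, 297 and 1483 counts in wt MΦs. Prc1, which bundles midzone microtubules, had 52, 545 and 752 counts in BMI1-KO MM-MΦs against 182, 510 and 2052 counts in wt MM-MΦs, and 47, 469 and 672 counts in BMI1-KO MΦs against 130, 357 and 1964 counts in wt MΦs. Both were lowest in the BMI1-KO replicates 1. For Kif20a, 29.3% of the exonic bases overlap another gene, so that its counts are less certain.

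Chromosome structure genes gave the largest counts. Mki67, the proliferation marker that coats mitotic chromosomes, had 1277, 2743 and 3878 counts in BMI1-KO MM-MΦs against 2494, 2793 and 13180 counts in wt MM-MΦs, and 835, 2702 and 3333 counts in BMI1-KO MΦs against 1848, 2974 and 13118 counts in wt MΦs. It made up 14.3% to 26.3% of the counts of the 54 genes, with the largest share of each group in replicate 1. Top2a, the topoisomerase that untangles sister chromatids, with another of the 3 widest ranges (6.07), had 159, 1272 and 1851 counts in BMI1-KO MM-MΦs against 462, 1170 and 5665 counts in wt MM-MΦs, and 69, 1096 and 1602 counts in BMI1-KO MΦs against 320, 1110 and 5384 counts in wt MΦs. Ncapg, a condensin I subunit, had 16, 137 and 141 counts in BMI1-KO MM-MΦs against 28, 103 and 522 counts in wt MM-MΦs, and 18, 106 and 236 counts in BMI1-KO MΦs against 30, 86 and 485 counts in wt MΦs.

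**Figure D3:**
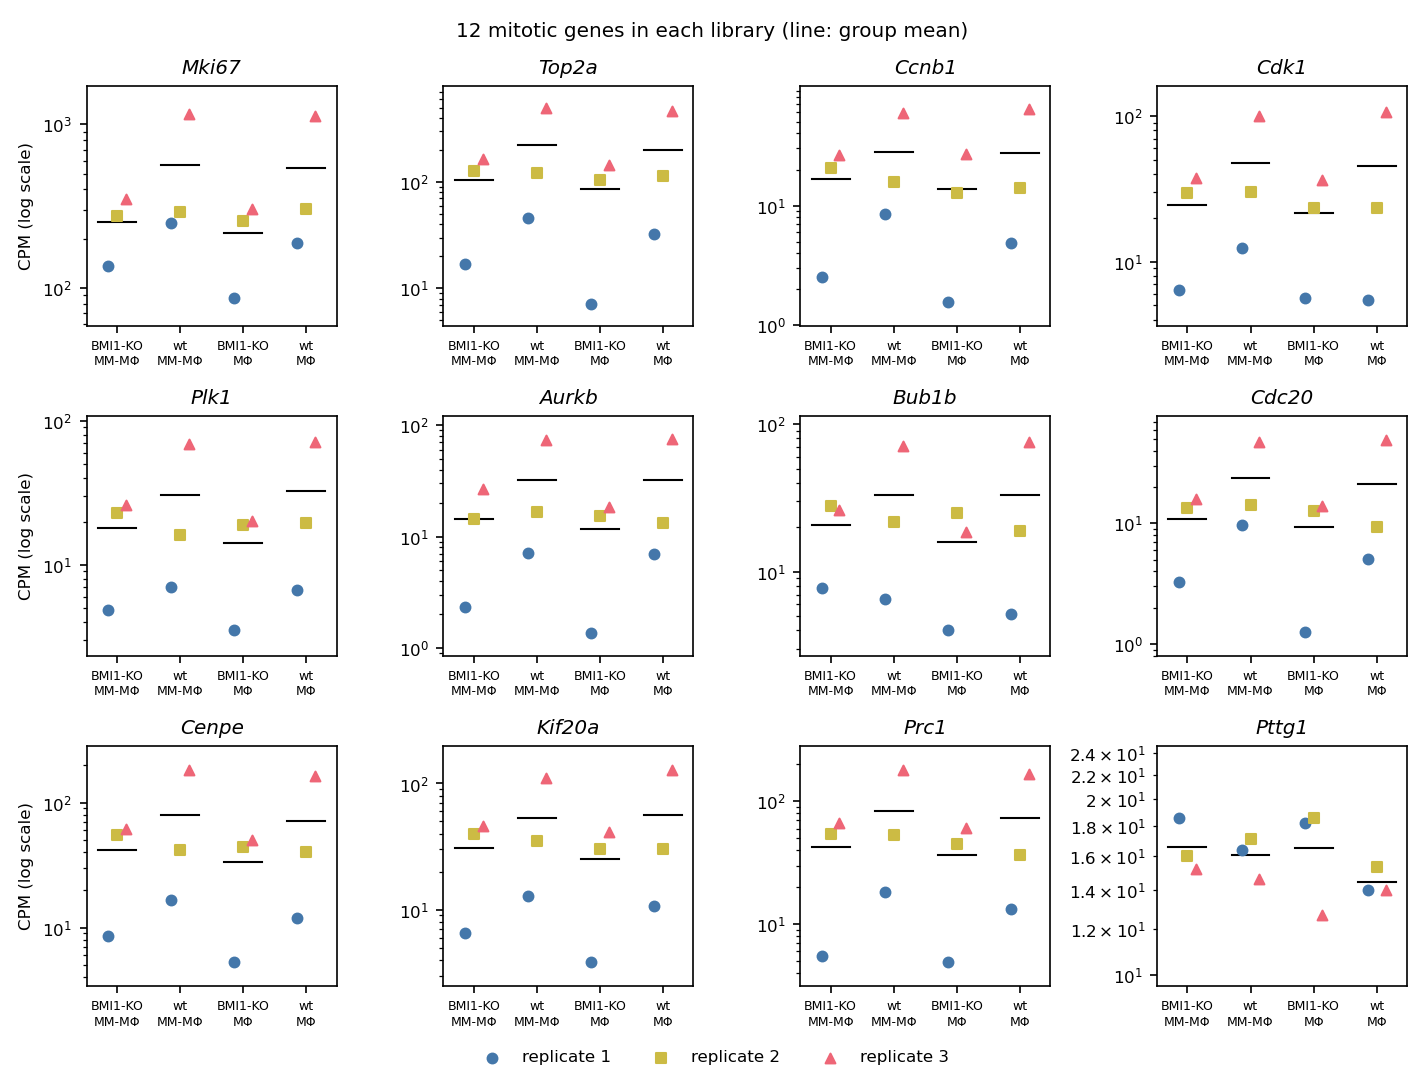
CPM on a log scale (y axis) of 12 mitotic genes in each library, by group (x axis), with replicates 1, 2 and 3 as circles, squares and triangles and a line at the group mean (n = 3). The triangles of the wt groups lie highest and the circles lowest in the groups of the first 11 genes, while Pttg1, whose axis spans less than the others, shows no such order.

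Differences between replicate numbers were tested within each genotype, where MM-MΦ and MΦ libraries of 1 number deviated together. The test was run because of that shared deviation in these same data, so its outcome is not independent of it. Each number stands for 1 MM-MΦ and 1 MΦ library, so the p-values describe these libraries only. The test asks whether any of the 3 numbers differ, and the direction given is that of number 3 against number 1. In wt, 52 of the 53 genes differed between numbers and all 52 were higher in number 3 than in number 1 (edgeR, adjusted p under 0.05), against 14.6% of all genes tested. Pttg1 was the 1 that did not pass (adjusted p = 0.774). In BMI1-KO, 50 of the 53 genes passed and were higher in number 3 than in number 1, against 15% of all genes tested. Those that did not pass were Pttg1, Cenpu and Cks2, with edgeR adjusted p-values of 0.266, 0.23 and 0.163. DESeq2 and limma-voom called 52 genes in wt and 50 in BMI1-KO as well.

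The smallest adjusted p-values in wt were those of the condensin subunit Ncapd2, followed by Cenpe, Prc1 and the centralspindlin subunit Racgap1, which were tied. Ncapd2 was higher in number 3 than in number 1 by 3.38 on the log2 scale (SE 0.13, edgeR adjusted p = 4.49e-13). In BMI1-KO they were those of Racgap1, Prc1 and Top2a, with Racgap1 higher in number 3 than in number 1 by 3.48 (SE 0.16, edgeR adjusted p = 1.72e-11). The steps between numbers are given as median differences over the 53 genes. In BMI1-KO libraries number 3 exceeded number 2 by a median of 0.37 and number 2 exceeded number 1 by 2.56 on the log2 scale. In wt libraries number 3 exceeded number 2 by 1.98 and number 2 exceeded number 1 by 1.3. The medians over all 14197 genes lay between −0.01 and 0.02 in all of these.

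Markers of other cell types also differed between numbers. Macrophage markers summed to 17760 to 20140 CPM in the 4 libraries numbered 1, 13100 to 15660 CPM in those numbered 2 and 13340 to 14670 CPM in those numbered 3. Lyz2 and Csf1r were the largest parts, at 9890 to 11200 and 3500 to 3990 CPM in number 1. Of the 10 macrophage markers, 6 passed the same test with number 3 below number 1 in wt and 2 with it above. In BMI1-KO 5 passed with number 3 below number 1 and 1 with it above. Over all 14197 genes tested, 2268 in wt and 1875 in BMI1-KO passed with number 3 below number 1. Stem and progenitor markers summed to 48, 86.2 and 122 CPM in BMI1-KO MM-MΦs against 40.7, 38.8 and 56 CPM in wt MM-MΦs, and to 45, 55.3 and 104 CPM in BMI1-KO MΦs against 27.6, 31 and 45.6 CPM in wt MΦs. Cd34 was the largest part of the BMI1-KO sums, at 33.1, 51.5 and 93.9 CPM in MM-MΦs. In wt MM-MΦs it had 21.2, 13.7 and 13.1 CPM, while Spn had 10.5, 19 and 30.1 CPM. Of the 12 genes, 4 passed the filter, and Kit, Flt3, Mpo and Elane had at most 4, 4, 13 and 6 counts in a library. The 10 neutrophil markers stood apart in the BMI1-KO libraries numbered 2, where they summed to 218 CPM in MM-MΦs and 141 CPM in MΦs, against 33.9 to 70 CPM in the other 10 libraries. Those 2 libraries are the BMI1-KO ones whose summed mitotic level was closest to that of wt at the same number. In the test over the 3 numbers, 7 of 7 neutrophil genes passed in BMI1-KO, with fitted differences of number 3 from number 1 below 0. Ltf had 33, 451 and 55 counts in BMI1-KO MM-MΦs, and Ngp 44, 596 and 53, so number 2 was the highest. Number 3 was thus not below number 1 in MM-MΦs for these 2. In wt 3 passed and lay above 0. The 9 lymphocyte markers summed to at most 23.1 CPM, with Cd3e, Cd3g, Cd8a and Ncr1 at 0 in all 12 libraries. The 7 dendritic cell markers amounted almost wholly to Itgax, and the 10 erythroid and megakaryocyte markers to Pf4. The part of any of these cells in the differences between numbers was not tested.

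Other cell cycle genes followed the mitotic genes between numbers. Of 36 other kinetochore and centromere genes, 33 in wt and 30 in BMI1-KO passed the test and were higher in number 3 than in number 1, led in both by Kntc1 and Knl1, a checkpoint recruiter and the kinetochore scaffold. Of 36 other spindle and cytokinesis genes tested, 33 and 32 did so in wt and in BMI1-KO, and 1 in each was lower. All 20 S phase genes did so in both genotypes, with Uhrf1, a DNA methylation cofactor, the first in each. Of 16 genes of the anaphase-promoting complex and separase, 11 in wt and 8 in BMI1-KO were higher. Of 13 cohesin and condensin II genes, 9 in wt and 4 in BMI1-KO were higher, and 1 in each was lower. Over all genes tested the share called higher was 14.6% in wt and 15% in BMI1-KO. Of 20 transcription factors linked to mitotic genes, 11 in wt and 9 in BMI1-KO were higher. Foxm1, which binds at CHR promoters with MuvB, had 46, 261 and 487 counts in BMI1-KO MM-MΦs against 138, 277 and 1587 counts in wt MM-MΦs, and 42, 267 and 328 counts in BMI1-KO MΦs against 109, 261 and 1365 counts in wt MΦs. Of 20 genes of G1 and cell cycle exit, 11 were higher and 3 lower in wt, and 9 higher and 4 lower in BMI1-KO.

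Loss of BMI1 was compared first in MM-MΦs. No mitotic gene passed the test between BMI1-KO and wt MM-MΦs (0 of 53, edgeR, against 0.0634% of all genes tested). DESeq2 and limma-voom called 0 as well. With edgeR, 1 of the 53, Cenpu, had an unadjusted p under 0.05, against 712 of all 14197 genes. Of the 53, all but Pttg1 had a fold change below 0. The median was −0.96 on the log2 scale over the 53 genes and −0.01 over all genes tested. Their summed level averaged 1575 ± 940 CPM in BMI1-KO MM-MΦs against 3024 ± 2935 CPM in wt MM-MΦs (SD, n = 3), so that the SD of the wt libraries was larger than the difference of the means. Mki67 averaged 253 ± 107 CPM in BMI1-KO MM-MΦs against 565 ± 513 CPM in wt MM-MΦs, or −1.16 on the log2 scale (SE 0.76, edgeR adjusted p = 0.999). Top2a had a log2 fold change of −1.1 (SE 1.2) and Cdk1 one of −0.95 (SE 1.05).

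The smallest p-values in this comparison belonged to Cenpu, Cks2 and Kif11. Cenpu, a protein of the inner kinetochore, had 32, 53 and 56 counts in BMI1-KO MM-MΦs against 54, 60 and 227 counts in wt MM-MΦs, a fold change of −1.2 on the log2 scale (SE 0.51, edgeR adjusted p = 0.974). Cks2, a small subunit of Cdk complexes, had 19, 40 and 55 counts in BMI1-KO MM-MΦs against 50, 57 and 125 counts in wt MM-MΦs (−0.99 on the log2 scale with an SE of 0.48, edgeR adjusted p = 0.999). In both genes wt replicate 3 lay far above all other libraries of the comparison. The counts of Cks2, Cenpu and, above, Ccnb1 are less certain, since 29.7%, 23.3% and 23.4% of their 50-base stretches recur in other genes. Among other genes above, this share was 25.2% for Kif20a, 11.8% for Ncapg, 11.4% for Ccna2, 10.6% for Cdc20 and 10.4% for Plk1. Kif11 gave the lowest fold change (−2.87, SE 1.6), on the few counts above.

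By role, the median log2 fold change in MM-MΦs lay between −1.08 for the 7 genes of chromosome structure and −0.78 for the 6 mitotic kinases tested. It was −1.01 for the checkpoint genes and for the passenger complex partners, −0.95 for cyclins and their regulators, −0.98 for the kinetochore, −1 for the spindle and −0.93 for cytokinesis. The standard errors of single genes, most of them near 1, were larger than the differences between roles.

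Set out by replicate number, the genotypes lay apart at numbers 1 and 3 and close together at number 2. In MM-MΦs the median of BMI1-KO minus wt over the 53 genes was −1.02 at number 1, 0.16 at number 2 and −1.46 at number 3 in log2 CPM, with 51, 17 and 52 genes below 0. In MΦs it was −1.03, −0.04 and −1.61, with 49, 30 and 53 genes below 0. Lower in BMI1-KO at all 3 numbers were 16 of 53 genes in MM-MΦs, against 16.6% of all genes tested, and 27 of 53 in MΦs, against 16.3%. Higher at all 3 were 0 of 53 in both, against 13.8% of all genes in MM-MΦs and 14.6% in MΦs. Among the 16 genes in MM-MΦs were Cdk1 and Aurka, whose differences at number 2 were only −0.021 and −0.0531. The numbers were not read as pairing the genotypes, and these differences are between single libraries.

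**Figure D4:**
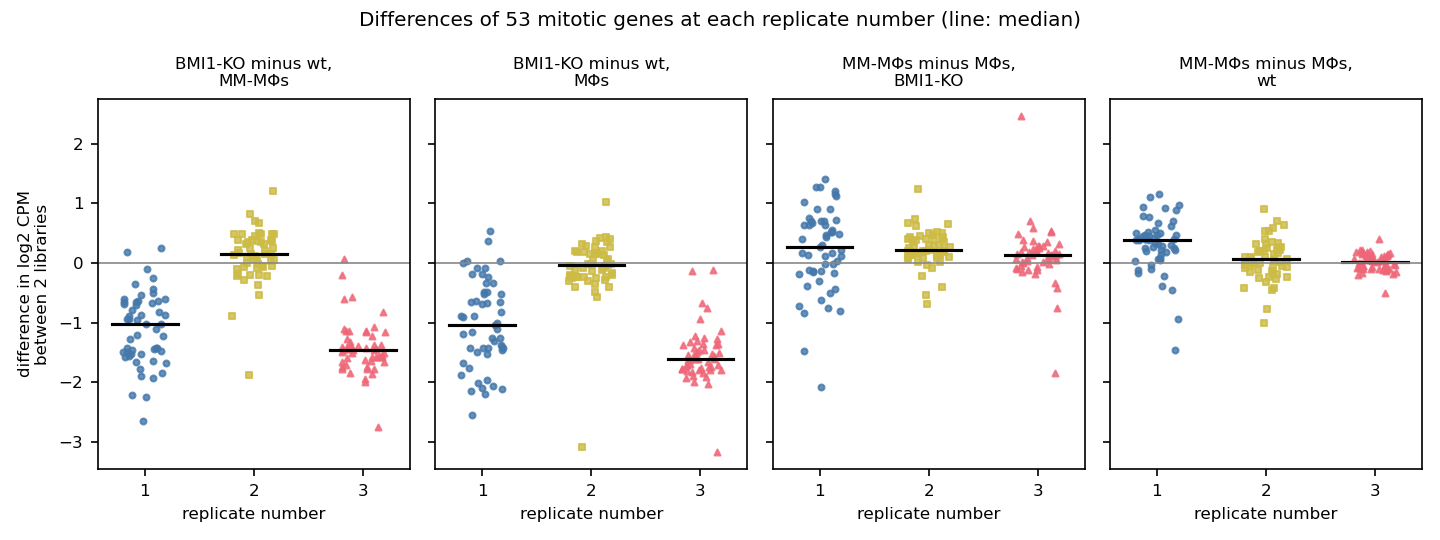
Difference in log2 CPM (y axis) of each of the 53 genes between 2 libraries of the same replicate number (x axis), for BMI1-KO minus wt in MM-MΦs and in MΦs and for MM-MΦs minus MΦs in BMI1-KO and in wt, with a line at the median. The genotype medians are −1.02, 0.16 and −1.46 in MM-MΦs and −1.03, −0.04 and −1.61 in MΦs, while the co-culture medians lie between 0.02 and 0.38.

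Between BMI1-KO and wt MΦs kept without myeloma cells the values were similar. Of the 53 genes 0 passed the test (edgeR, DESeq2 and limma-voom), against 0.0493% of all genes tested with edgeR. With edgeR, 0 of the 53 had an unadjusted p under 0.05, against 819 of all 14197 genes. The median log2 fold change was −1.09 (−0.01 over all genes tested), and only Pttg1 lay above 0 (0.19, SE 0.18). The summed level averaged 1393 ± 852 CPM in BMI1-KO MΦs and 2908 ± 2937 CPM in wt MΦs (SD, n = 3). Spc24, Mki67 and Cenpu had the smallest p-values. Mki67 averaged 216 ± 114 CPM in BMI1-KO MΦs and 537 ± 508 CPM in wt MΦs, or −1.32 on the log2 scale (SE 0.76, edgeR adjusted p = 0.957). Spc24, the low count gene above, had −2.72 (SE 1.4, edgeR adjusted p = 0.921), and Cenpu −0.82 (SE 0.51, edgeR adjusted p = 0.972), with 45, 74 and 74 counts in BMI1-KO MΦs and 73, 73 and 207 counts in wt MΦs.

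The medians of both genotype comparisons changed sign when a wt replicate 3 was left out. Without wt MM-MΦ replicate 3 the median log2 fold change of the 53 genes in MM-MΦs was 0.32, and without wt MΦ replicate 3 that in MΦs was 0.24. These runs kept the BMI1-KO libraries numbered 3, so their arms were unbalanced in number. Without the 4 libraries numbered 2, where the genotypes lay close together, the median in MM-MΦs was −1.44. Cdkn2a, a gene of the G1 and exit list that encodes the cell cycle inhibitors p16Ink4a and p19Arf, passed the test in both genotype comparisons. It had 108, 159 and 230 counts in BMI1-KO MM-MΦs against 0, 0 and 1 in wt MM-MΦs, and 133, 144 and 179 counts in BMI1-KO MΦs against 1, 0 and 7 in wt MΦs (edgeR adjusted p = 0.00205 in MM-MΦs and 0.00835 in MΦs). It was higher in every BMI1-KO library than in any wt library. The part of Cdkn2a in the values of the mitotic genes was not tested. Of the other kinetochore, spindle, anaphase-promoting complex, cohesin, transcription factor and S phase genes, 0 passed in either genotype comparison (edgeR), with 0 of them at an unadjusted p under 0.05 in MM-MΦs and 2 in MΦs. All 20 S phase genes lay below 0 in both, with medians of −0.81 in MM-MΦs and −0.95 in MΦs. Marker lists of other cells were compared between genotypes as well. The 7 dendritic cell markers summed to 14.6 to 55 CPM in BMI1-KO MM-MΦs against 90.5 to 594 CPM in wt MM-MΦs. In MΦs they summed to 13.8 to 62.6 CPM in BMI1-KO and 93.8 to 540 CPM in wt. These sums were nearly all Itgax, the only 1 of the 7 tested. Zbtb46, Xcr1 and Clec9a had at most 9, 4 and 9 counts in a library, so the sums describe Itgax and not dendritic cells. Of the 7 neutrophil markers tested, 6 lay above 0 in each comparison, with median log2 fold changes of 2.03 in MM-MΦs and 2.06 in MΦs, and 3 and 1 of them had an unadjusted p under 0.05. Their direction was not the same at each number. For numbers 1, 2 and 3 the 10 neutrophil markers summed to 51.3, 218 and 38.3 CPM in BMI1-KO MM-MΦs. In wt MM-MΦs they summed to 50.9, 54.2 and 65.6 CPM. In MΦs the sums were 70, 141 and 33.9 CPM in BMI1-KO and 39.2, 53.6 and 58 CPM in wt. The 7 plasma and myeloma cell markers tested had medians of −0.3 in MM-MΦs and −1.87 in MΦs, with 2 and 4 at an unadjusted p under 0.05. Of the 4 stem and progenitor markers tested, 2 and 1 were at an unadjusted p under 0.05, with medians of −0.03 and 0.34. Over all 14197 genes, 712 in MM-MΦs and 819 in MΦs had an unadjusted p under 0.05 (edgeR). None of these markers of other cells passed the adjusted test between genotypes (edgeR). The part of these cells in the genotype values of the mitotic genes was not tested.

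**Figure D5:**
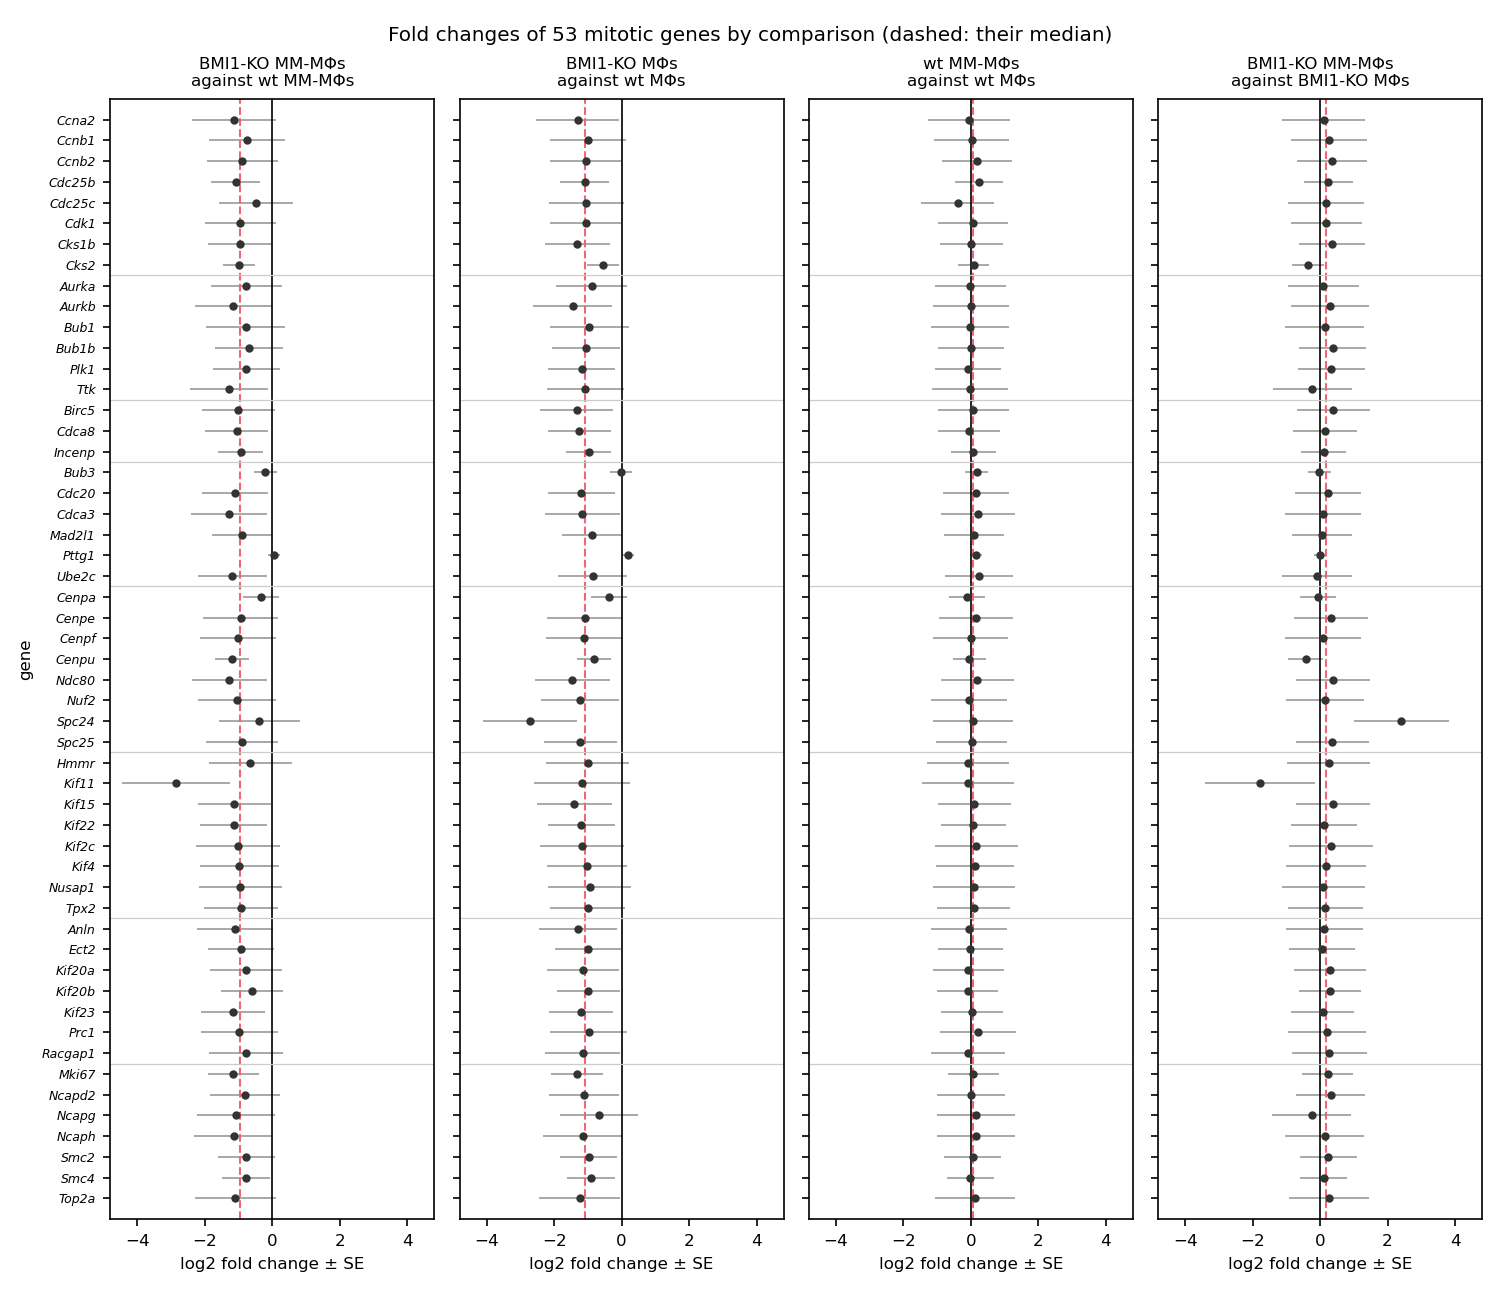
Log2 fold change (x axis, points) with its standard error (bars) of the 53 genes (rows, by role) in the 4 comparisons, from the edgeR model with a mean for each group of 3 libraries, with a dashed line at the median. The medians are −0.96 and −1.09 between genotypes and 0.05 and 0.18 between MM-MΦs and MΦs, most error bars of the genotype comparisons reach or nearly reach 0, and Pttg1 has the shortest bars.

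Co-culture with myeloma cells was compared within each genotype. In wt, 0 of the 53 genes passed the test between MM-MΦs and MΦs (edgeR, DESeq2 and limma-voom), against 0.0916% of all genes with edgeR. An unadjusted p under 0.05 (edgeR) was found for 0 of the 53, against 282 of all 14197 genes. The median log2 fold change was 0.05, with 35 genes above 0 and 18 below, and it was −1.28 without wt MM-MΦ replicate 3, −0.42 without wt MΦ replicate 1 and −0.23 without wt MΦ replicate 2. Each of these runs kept the wt library of the same number in the other culture, so its median also moves with the number. The smallest p-values were those of Pttg1 (0.15, SE 0.18), Bub3 (0.17, SE 0.34) and Cdc25c (−0.39, SE 1.08), all with an edgeR adjusted p of 1. After Cdc25c, the genes furthest below 0 were Cenpa (−0.12), Hmmr (−0.09), a microtubule-binding spindle protein, and Kif20b (−0.09). Top2a averaged 221 ± 242 CPM in wt MM-MΦs and 202 ± 227 CPM in wt MΦs (SD, n = 3), a log2 fold change of 0.13. With the replicate number as a block within genotype, 0 passed, 2 had an unadjusted p under 0.05 (6.45% of all genes), and Prc1 came first with 0.34 (SE 0.11, edgeR adjusted p = 0.276). The median over the 53 genes was then 0.135, with 43 above 0.

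In BMI1-KO the mitotic genes had fold changes mostly above 0 in MM-MΦs, and 0 of 53 passed the test (edgeR, DESeq2 and limma-voom), against 0.19% of all genes with edgeR. An unadjusted p under 0.05 (edgeR) was found for 0 of the 53, against 418 of all 14197 genes. The median log2 fold change was 0.18, with 45 genes above 0, against −0.01 over all genes tested. It was −0.26 without BMI1-KO MΦ replicate 1 and −0.25 without BMI1-KO MM-MΦ replicate 3. Both runs kept the BMI1-KO library of the same number in the other culture. Spc24 came first with 2.4 (SE 1.41), followed by Kif11 with −1.77 (SE 1.63) and Cenpu with −0.43 (SE 0.51), all with an edgeR adjusted p of 1. Kif11 and Cenpu were followed below 0 by Cks2 (−0.35) and Ncapg (−0.25). With the block 0 passed, 11 of the 53 had an unadjusted p under 0.05 (10.6% of all genes), and Spc24 came first with 2.39 (SE 0.68, edgeR adjusted p = 0.0806). The median over the 53 genes was then 0.199, with 45 above 0.

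Within each pair of libraries of 1 number, the summed level in MM-MΦs was 1.15, 1.17 and 1.1 times that in MΦs in BMI1-KO, and 1.28, 1.01 and 1.02 times in wt, for numbers 1, 2 and 3. The co-culture differences were thus small beside those between numbers. Higher in MM-MΦs at all 3 numbers were 24 of 53 genes in BMI1-KO, among them Mki67, Top2a, Cdk1 and Plk1, against 14.8% of all genes tested, and 9 in wt, among them Top2a, Ccnb2, Cenpe and Prc1, against 15%. Lower at all 3 was Cenpu alone of the 53 in BMI1-KO and Cenpa alone in wt, against 15.3% and 13.5% of all genes. Markers of plasma and myeloma cells (14 genes) summed to 290 to 348 CPM in BMI1-KO MM-MΦs against 312 to 620 CPM in wt MM-MΦs, and to 136 to 203 CPM in BMI1-KO MΦs and 140 to 385 CPM in wt MΦs. Igkc, an immunoglobulin chain, had 357, 586 and 1218 counts in BMI1-KO MM-MΦs against 8, 11 and 25 in BMI1-KO MΦs (edgeR adjusted p = 0.0466), and 423, 1327 and 831 counts in wt MM-MΦs against 12, 157 and 31 in wt MΦs. Ighg2b, an immunoglobulin heavy chain, had 385, 562 and 1180 counts in BMI1-KO MM-MΦs against 16, 0 and 9 in BMI1-KO MΦs, and 424, 1170 and 716 counts in wt MM-MΦs against 0, 113 and 19 in wt MΦs. Pou2af1, a B cell coactivator, had 11, 32 and 37 counts in BMI1-KO MM-MΦs against 0 in each BMI1-KO MΦ library, and 7, 35 and 7 counts in wt MM-MΦs against 0, 1 and 0 in wt MΦs. For these 3 genes every MM-MΦ library had more counts than any MΦ library of the same genotype. Sdc1 (CD138) did not follow the culture, with 145 to 188 counts in BMI1-KO MM-MΦs against 77 to 207 in BMI1-KO MΦs, and 362 to 1298 in wt MM-MΦs against 284 to 1169 in wt MΦs. Jchain, Mzb1 and Tnfrsf17 had at most 12, 5 and 2 counts in a library. Of the 14 markers 7 were tested, and 6 of these lay above 0 in each genotype, with median log2 fold changes of 1.53 in BMI1-KO and 0.62 in wt. The part of myeloma cells in the co-culture values was not tested.

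The interaction asks whether the co-culture difference itself differed between BMI1-KO and wt. It was past the threshold for 0 of the 53 genes (edgeR, DESeq2 and limma-voom) and for 0% of all genes tested. With edgeR, 0 of the 53 had an unadjusted p under 0.05, against 129 of all 14197 genes. The median of the interaction over the 53 genes was 0.14 on the log2 scale, with 39 genes above 0. The sign of that median turned with any of 6 libraries left out, namely BMI1-KO MM-MΦ replicates 2 (−0.043) and 3 (−0.288), BMI1-KO MΦ replicate 1 (−0.334), wt MM-MΦ replicates 1 (−0.315) and 2 (−0.157) and wt MΦ replicate 3 (−1.28). Each of these runs kept the library of the same number in the other culture, so its median also moves with the number. With the replicate number as a block within genotype the median was 0.122, with 33 genes above 0. Spc24 (2.33, SE 1.84), Kif11 (−1.7, SE 2.12) and Cks2 (−0.44, SE 0.67) had the smallest p-values, all with an edgeR adjusted p of 1. Ncapg (−0.41) and Cenpu (−0.38) also lay below 0. The difference between genotypes in the spacing of the replicate numbers was not tested.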

How the data were processed

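RNA-seq counts of 12 libraries in 4 groups of 3 were analysed. The authors deposited raw counts per gene and, for each library, FPKM values with exon sizes. The submitters' processing notes name GRCm38 (mm10), HTSeq 0.6.1 as counter, HISAT2 2.0.1 as aligner, cutadapt 1.9.1 for trimming, bcl2fastq 2.17.1.14 and DESeq2. The strand setting of counting was not given in the sources used here, nor was the release of the annotation. The value columns without a sample numbered 0. FPKM values served for levels compared between genes and for the check of library totals (genes of at least 50 counts, tolerance 0.005).

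Counts were fitted with edgeR 4.0.16 in R 4.3.3 (TMM, quasi-likelihood test, 1 mean per group, common dispersion 0.102), after filterByExpr (minimum count 10, minimum total 15, large group size 10, minimum proportion 0.7) left 14197 genes. The Benjamini-Hochberg adjustment ran over all of these, with a threshold of 0.05. Log2 CPM used a prior count of 2. Depth was 9662279 to 11142768 counts, so that 3 counts, taken as the floor, limit the precision of low genes.

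Deviations of MM-MΦ and MΦ libraries of 1 number from their group means correlated across genes at 0.64, 0.18 and 0.6 in BMI1-KO and 0.55, 0.36 and 0.73 in wt for numbers 1, 2 and 3. All exceeded 0.1, so numbers were read as pairing libraries within a genotype, from the data and not the labels. Replicate number was then tested with an F test in a model with number and culture within genotype (common dispersion 0.0133). Between genotypes the correlations were 0.5, 0.03 and 0.51 in MM-MΦs and 0.48, −0.03 and 0.5 in MΦs, and no pairing was assumed. Replicates of a group differed by far more than sampling noise (chi-square per degree of freedom 13 to 81). Alternatives were DESeq2 1.42.0, limma-voom (limma 3.58.1), other scalings and filters, the block, fewer libraries and each library left out. Scripts were tested on simulated data.

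Named genes were fixed genes of each role, the 3 smallest p-values and up to 4 genes of opposite sign in each comparison, and the 3 widest and narrowest ranges. The members, lists, the test of replicate number and this rule were chosen with earlier results of these data known. Sequences are from RefSeq (GRCm38.p6), and exon overlap from GENCODE M21.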

Additional observations from a re-analysis of the deposited data

How the results depend on the processing

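The count of mitotic genes called stayed at 0 in both genotype comparisons, both co-culture comparisons and the interaction under every alternative run, and between replicate numbers it was 51 to 52 in wt and 48 to 50 in BMI1-KO. Calls over all genes moved more: DESeq2 called 89 and 78 genes between genotypes in MM-MΦs and MΦs, 58 and 91 between cultures in wt and BMI1-KO, against 9, 7, 13 and 27 with edgeR, and limma-voom called 2 in wt cultures. With the replicate number as a block across genotypes, 181 and 206 genes were called in MM-MΦs and MΦs and 37 of the 53 genes had an unadjusted p under 0.05 in each (11.7% and 13.3% of all genes), with smallest adjusted p-values of 0.103 (Kif11) and 0.1 (Kif15). There the libraries share only a number. The block within genotype called 156 and 308 genes between cultures in wt and BMI1-KO, and it changed no call of a mitotic gene.

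With each library left out, the median log2 fold change ranged over −1.42 to 0.32 (MM-MΦ genotypes), −1.59 to 0.24 (MΦ genotypes), −1.28 to 1.43 (wt co-culture), −0.26 to 0.72 (BMI1-KO co-culture) and −1.28 to 1.44 (interaction), the extremes coming mostly from libraries numbered 3. In MM-MΦ genotypes the ranges were −1.62 to 0.32 for Top2a, −1.28 to 0.46 for Ccnb1, −1.4 to 0.23 for Cdk1, −1.24 to 0.65 for Plk1 and −0.0341 to 0.123 for Pttg1. In wt co-culture they were −0.13 to 0.44 for Bub3, −1.65 to 1.19 for Cdc25c and −1.29 to 1.61 for Top2a, and in BMI1-KO co-culture −3.53 to 1.81 for Kif11 and −0.27 to 0.902 for Top2a. In the interaction they were −0.22 to 3.99 for Spc24, −3.46 to 1.88 for Kif11 and −1.07 to 0.00522 for Cks2. Chosen after seeing the data, leaving out the 4 libraries numbered 3 gave 0.27 for Plk1 in MM-MΦ genotypes, 0.0362 for Kif11 in BMI1-KO co-culture and 1.12 for Kif11 in the interaction, and leaving out those numbered 1 gave −0.0151 for Pttg1 in MM-MΦ genotypes. The cause was not tested. Runs without 1 library kept those of the same number in the other groups, so their values also move with the number. Where an arm kept few libraries, its spread was taken from the other groups. Low counts limit Kif11 and Spc24.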
